A study of Mus musculus with 48 samples.

Results

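Joining of the mouse immunoglobulin kappa light chain locus (Igk) was profiled in one v-Abl transformed pro-B cell line in which the protein Wapl can be degraded. The libraries were chosen by their titles, which name the Wapl-degron line with or without IAADox and no Igh bait, and by a bait that lies in Igk on chromosome 6. They were 5 of the 48 samples of the series, 2 treated and 3 untreated, and they held 473698 junctions, of which 423392 fell in the Vk region. All 5 carried the same genotype in the labels: Wapl-degron, OsTIR1, Single Igh, Emu-Bcl2 and RAG1 deficient. All cells were infected with a RAG1/2 retrovirus and given STI-571 at 3 uM. The untreated cells received STI-571 for 4 days. The treated cells received it alone for 1 day, and then with 150 µM IAA and 2 mg/mL Dox for 3 days. All libraries came from 1 transformed line, Rag1 was supplied by a virus, and the level of Wapl protein was not measured here. No label says that the replicates were separate cultures, so the p-values measure only the spread between these libraries, which may be technical.

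A pro-B cell assembles antibody genes by V(D)J recombination. The RAG enzyme cuts at recombination signal sequences, each a heptamer and a nonamer held apart by a spacer of 12 or 23 bases, and joins a segment with a 12-base spacer to one with a 23-base spacer. Transformation by v-Abl blocks light chain joining, and STI-571, an inhibitor of the Abl kinase, releases that block. At Igk, each Vk gene joins to one of a few Jk segments beside the constant gene Igkc. A Vk gene that reads in the same direction as Jk joins by deleting the DNA between them, and one that reads the other way joins by inverting it. Wapl takes the cohesin ring off chromosomes. Cohesin extrudes DNA loops, and loops that grow past sites bound by CTCF can bring distant segments to the recombination centre. The comparison asks which Vk genes join when Wapl is depleted.

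The bait primer read past the Jk segment Igkj5 (chromosome 6, 70673880 to 70673921, mm9, plus strand), and each junction is the place where a read left Igkj5 for another sequence. Joins of Vk genes to the other Jk segments are not counted, so the use of a Vk gene here means its joins to Igkj5. The following signals are those of Igkj5 and of some genes and sites named in the results. Each starts with the 15 bases before the heptamer in lower case and has the heptamer and the nonamer in capitals. Igkj5 has the 23-base spacer and pairs with the 12-base signals of Vk genes. Igkv1-135 and Igkv16-104 are distal and gained use with IAA/Dox, Igkv8-24 and Igkv3-12 are proximal and lost use, and Igkv3-2 is among the nearest Vk genes and gained use. The last pair lies on the far side of Igkj5 from the Vk genes. These were matched by sequence only, with 4 mismatches in the nonamer of the intron site and 3 in that of the downstream site.
Igkj5 (chr6:70673841-70673894, minus strand): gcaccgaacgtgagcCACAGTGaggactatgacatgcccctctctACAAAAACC
Igkv1-135 (chr6:67560488-67560530, plus strand): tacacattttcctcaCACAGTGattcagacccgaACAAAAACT
Igkv16-104 (chr6:68376052-68376094, plus strand): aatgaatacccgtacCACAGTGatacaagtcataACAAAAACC
Igkv8-24 (chr6:70166824-70166866, minus strand): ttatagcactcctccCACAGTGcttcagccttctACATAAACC
Igkv3-12 (chr6:70468829-70468871, plus strand): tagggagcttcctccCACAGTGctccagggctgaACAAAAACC
Igkv3-2 (chr6:70649047-70649089, plus strand): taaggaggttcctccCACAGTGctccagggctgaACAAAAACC
Intron site (chr6:70674993-70675035, plus strand): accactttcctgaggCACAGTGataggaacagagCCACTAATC
Downstream site (chr6:70701736-70701789, minus strand): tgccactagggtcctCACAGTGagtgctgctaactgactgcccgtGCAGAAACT
These were read from the mm9 genome sequence. The heptamer is CACAGTG in all 8 of them, and the spacer and nonamer of Igkv3-12 and Igkv3-2 have the same letters. The use of these genes changed in opposite directions, and the part of the signal sequence in these changes was not tested.

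The lists held 20270 and 29711 junctions with IAA/Dox against 151435, 142434 and 129848 without. Depth therefore moved with treatment. Lines that repeat another junction were common: distinct junctions made up 23.8% and 18.7% of the treated lists and 6.29% to 6.87% of the untreated ones. With the far end of the read also compared, they made up 67.0% and 60.8% against 33.9% to 35.9%. Repeated lines may be copies of a molecule or separate joins at the same bases, and these cannot be told apart here. The untreated lists were deeper and lost a larger part of their lines when repeats were counted once. All 5 libraries came from 1 sequencing run and shared no read name. Junctions off chromosome 6 were similar in number, 2484 and 2739 against 2603 to 2934, and so took a larger percent of the treated lists, 12.3% and 9.22% against 1.78% to 2.06%. The part of depth and of the off-chromosome junctions in the results was not tested beyond the alternatives given beside them.

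With IAA/Dox, Vk junctions lay farther from the bait. The Vk region runs over 3.15 Mb, from 67505630 to 70654171, and genes at the low coordinates are distal. Vk junctions beyond the midpoint of the region made up 52.2% and 51.5% of Vk junctions in the treated libraries, and 30.1%, 29.1% and 29.7% in the untreated ones. The groups did not overlap, and the difference of 22.2 percentage points was far above the spread within either group (51.9% ± 0.489, SD, n = 2, against 29.6% ± 0.533, n = 3). The two-sided exact permutation p was 0.2, the smallest that 2 against 3 libraries can give (adjusted p = 0.32 over 16 tests). When repeated junctions were counted once, the difference was 9.37 points. It was 14.5 points when repeats were taken as junctions with the same position, bait end and far end of the read.

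The median distance from the bait end was 1.71 and 1.68 Mb in the treated libraries and 0.960, 0.997 and 0.997 Mb in the untreated ones (means 1.69 ± 0.0187 Mb, SD, n = 2, and 0.985 ± 0.0219 Mb, n = 3, exact permutation p = 0.2, adjusted p = 0.32). The treated medians thus lay past the midpoint and the untreated ones well before it. The lower quartile was 0.824 and 0.866 Mb against 0.507, 0.508 and 0.552 Mb, so the shift held in the near part of the distribution as well. The upper quartile was 2.60 and 2.47 Mb against 1.81, 1.73 and 1.73 Mb. With repeated junctions counted once, the difference in medians was 0.285 Mb, against 0.709 Mb over all lines.

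The region was cut into 3 equal parts of 1.05 Mb, and the difference lay at its ends. The proximal part, which holds the Igkv3, Igkv6 and Igkv8 genes, took 38.2% and 36.6% of treated Vk junctions against 56.8%, 56.0% and 54.9% of untreated ones. The distal part, which holds most Igkv1 genes and the Igkv2, Igkv9, Igkv14 and Igkv17 genes, took 41.5% and 40.2% against 21.9%, 20.8% and 20.03%. Neither pair of groups overlapped (exact permutation p = 0.2, the floor of this design, adjusted p = 0.32 for each). The middle part, where most Igkv4 genes lie, took 20.3% and 23.2% against 21.2%, 23.3% and 25.05%. Here the groups overlapped (exact permutation p = 0.4, adjusted p = 0.457). With repeated junctions counted once the differences were -7.10 points in the proximal part and 8.83 in the distal part, against -18.5 and 19.9 over all lines. With repeats of the same far end counted once, the difference of the middle part was -3.64 points (exact permutation p = 0.2).

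Inversional joining made up a smaller part of treated Vk junctions, 51.9% and 53.7% against 64.6%, 66.5% and 67.8%. The groups did not overlap, with means of 52.8% ± 1.30 (SD, n = 2) and 66.3% ± 1.59 (n = 3; exact permutation p = 0.2, adjusted p = 0.32). The difference of -13.5 points was -4.64 with repeated junctions counted once. It was -6.51 when the libraries were thinned to equal size and repeated junctions were then counted once. In this locus direction follows position, since the distal part joined almost only by deletion in every library and the middle part almost only by inversion. Inversional junctions were 0.770% and 0.750% of the distal part in the treated libraries and 0.416%, 0.432% and 0.366% in the untreated ones. In the middle part they were at least 99.1% in each of the 5 libraries. The proximal part holds genes of both directions, and within it inversional junctions made up a larger part with IAA/Dox, 82.2% and 83.1% against 76.3%, 77.2% and 77.8%. The lower overall inversional share thus went with the larger distal part, and the opposite difference was seen among the proximal genes.

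**Figure D1:**
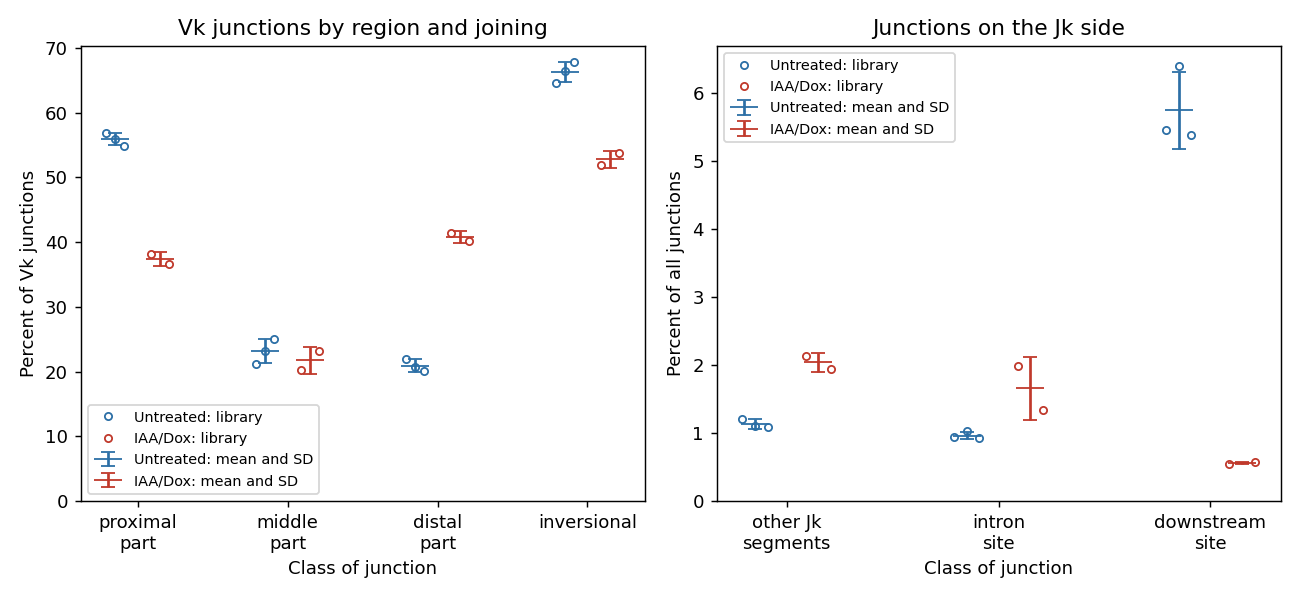
Percent of Vk junctions in each part of the Vk region and in inversional joins (left). Percent of all junctions in the Jk cluster, the intron site and the downstream site (right). The Jk cluster, marked as other Jk segments, is the whole interval and includes Igkj5 itself. Circles are untreated (blue) and IAA/Dox (red) libraries, and bars give the mean and SD. The proximal part was 38.2% and 36.6% in the treated libraries against 54.9% to 56.8%, and the downstream site was 0.548% and 0.569% against at least 5.38%.

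Junction positions were joined into segments over gaps of up to 20 bp, and 157 segments had at least 10 junctions over the 5 libraries. Of these, 92 were named by an annotated Vk gene within 20 bp and 65 were not, and 10 of the 102 Vk genes had no such segment. A gene named only its largest segment, so an unnamed segment may also lie in or beside a gene. All 92 joined on the strand that their orientation requires, 36 by deletion and 56 by inversion. The heptamer CACAGTG was present on either strand in a window of 37 bp around 88.0% of the named segments and 49.2% of the unnamed ones. It was present in 0.608% of all windows of that length in the Vk region. The unnamed segments together held few junctions: segments named by a gene took between 90.6% and 91.8% of Vk junctions in each library.

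limma voom called 77 of the 157 segments (49.0% of those tested, Benjamini-Hochberg adjusted p under 0.05), 29 higher (18.5%) and 48 lower (30.6%) with IAA/Dox. Segment use is given as a percent of all junctions of a library. The libraries of the groups did not overlap in any of the 77, and 114 of all 157 segments (72.6%) had groups that did not overlap. With Vk junctions as the library size all 77 kept the sign of their change, but not all stayed called. Under that scaling 79 segments were called (50.3%), 32 higher and 47 lower. With a quasi-binomial model 37 were called (23.6%), 14 higher and 23 lower, and without IAA/Dox replicate 2 limma called 48, 27 of them lower. With repeated junctions counted once the split was 12 higher and 70 lower.

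The calls divided by position. In the proximal part 30 of 63 segments fell and 8 rose (median log2 change -0.74), in the middle part 15 of 42 fell and 7 rose (-0.37), and in the distal part 3 of 52 fell and 14 rose (0.59). Over all 157 segments the median log2 change was -0.25. Across segments the Spearman correlation of the log2 change with distance was 0.323 (n = 157), and 0.412 over the 105 segments with at least 100 junctions. Segments share libraries and are not independent replicates. The correlation was 0.248 among deletional and 0.233 among inversional segments, so a trend of the same sign was present in both directions of joining. In the proximal part deletional segments had 12 lower and 3 higher of 24 (median -1.01), and inversional ones 18 lower and 5 higher of 39 (-0.55).

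**Figure D2:**
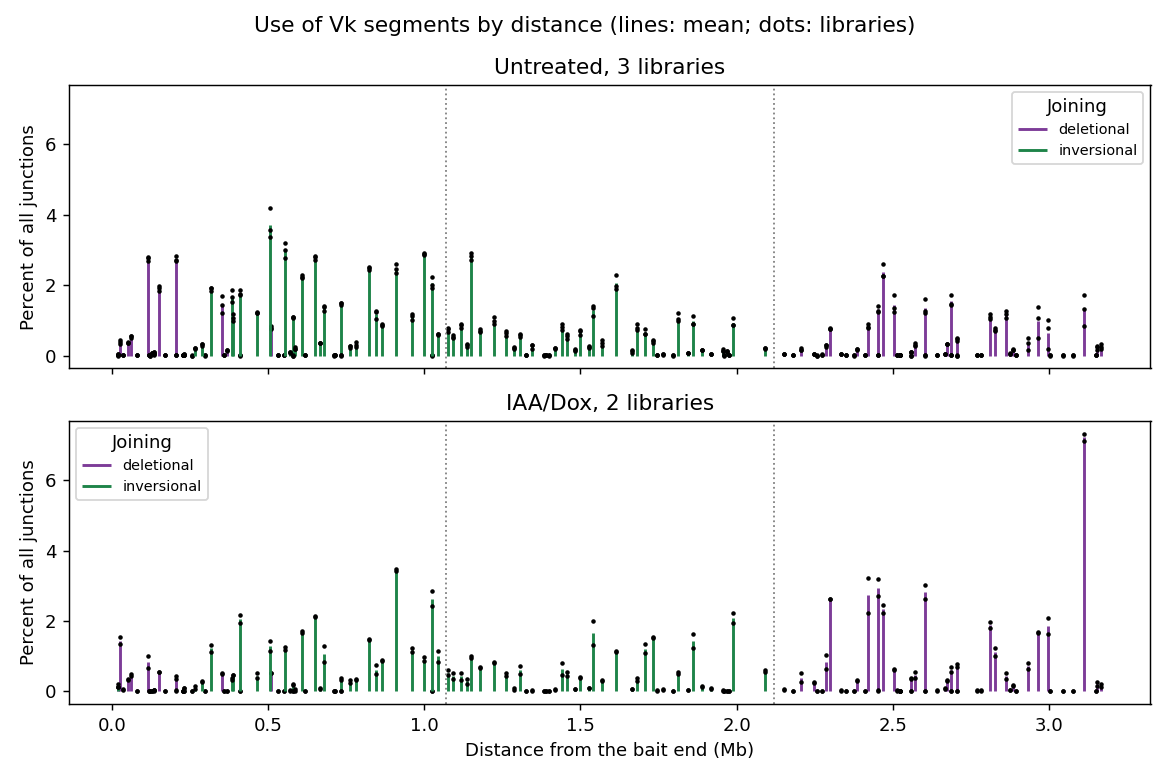
Use of each Vk segment, as a percent of all junctions, against its distance from the bait end in Mb, in the untreated (top) and IAA/Dox libraries (bottom). Lines are group means coloured by direction of joining, dots are single libraries and dotted lines mark the parts. In the treated libraries the tallest line is the distal Igkv1-135 at 7.22%, and in the untreated libraries it is the proximal Igkv8-24 at 3.71%.

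Igkv1-135, near the far end of the region (67559739 to 67560502), was the most used Vk gene with IAA/Dox. It took 7.32% and 7.12% of junctions in the treated libraries and 1.71%, 1.32% and 0.854% in the untreated ones, and moved from rank 25 to rank 1. The ratio of the means was 5.58 (log2 change 2.51, SE 0.25, limma adjusted p = 0.000200). The log2 change was 1.07 with repeated junctions counted once and 1.71 with repeats of the same far end counted once (limma adjusted p = 1.64e-05 and 3.73e-05). It accounted for part of the distal difference: without it the distal share was 47.3% ± 0.270 (SD, n = 2) against 28.6% ± 0.540 (n = 3). In its most frequent joint the read left Igkj5 after 24 bases shown in lower case and went on into Igkv1-135, shown in capitals; the bait and prey alignments overlap by 5 bases, so the last 5 lower-case bases align to both.
Igkv1-135 joint: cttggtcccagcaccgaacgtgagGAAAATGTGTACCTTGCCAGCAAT
This same joint led in both groups, at 26.9% of the 3600 treated and 25.3% of the 5579 untreated junctions of the gene.

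Other Vk1 genes of the distal part rose with it. Igkv1-110 was at 2.70% and 3.19% in the treated libraries against 1.24%, 1.28% and 1.42% (log2 change 1.19, SE 0.12, limma adjusted p = 0.000200). Igkv1-117 was at 2.62% and 3.03% against 1.22%, 1.27% and 1.597% (1.08, SE 0.16, limma adjusted p = 0.00156). The treated libraries of both genes lay above all untreated ones. The family Igkv1 as a whole took 22.5% and 22.1% of Vk junctions with IAA/Dox and 8.79%, 7.91% and 6.85% without. Of its 9 segments 5 rose and 1 fell, against 18.5% and 30.6% of all segments tested. The calls of Igkv1-110 and Igkv1-117 were lost when repeated junctions were counted once (log2 changes 0.27 and 0.22, limma adjusted p = 0.0741 and 0.145).

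Distal genes of other families rose too. Igkv16-104 (68375599 to 68376066) took 2.62% in both treated libraries and 0.757%, 0.786% and 0.769% in the untreated ones. The SDs were 0.00162 points with IAA/Dox and 0.0146 without, and the log2 change was 1.77 (SE 0.10, limma adjusted p = 3.77e-05). Igkv2-109 was at 2.23% and 3.23% against 0.779%, 0.820% and 0.886% (1.74, SE 0.16, limma adjusted p = 0.000174). An unnamed segment at position 68425093, whose signal has an exact heptamer and a spacer of 12 bases, was at 0.237% and 0.256% against 0.0482%, 0.0513% and 0.0347% (2.48, limma adjusted p = 0.000204). The only Igkv11, Igkv15 and Igkv16 segments all rose, as did 2 of 4 Igkv14 segments (18.5% of all segments tested rose). The log2 changes shrank when repeated junctions were counted once, to 0.66 for Igkv16-104, 0.58 for Igkv2-109 and 0.72 for position 68425093, and all 3 stayed called (largest limma adjusted p 0.00263). Igkv14-111, one of the 10 most used genes in both groups, took 2.47% and 2.21% against 2.27%, 2.26% and 2.61%, and its groups overlapped.

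Not all distal genes gained use. The 3 distal-part segments that fell were Igkv17-127, Igkv17-121 and Igkv2-112, named here after their values were seen. Their log2 changes were -1.47, -1.35 and -1.17 (largest limma adjusted p 0.00732). Igkv17-121 was at 0.691% and 0.542% with IAA/Dox against 1.47%, 1.44% and 1.73%. Igkv2-137, the farthest gene, was at 0.197% and 0.111% against 0.331%, 0.251% and 0.2002% and was not called (limma adjusted p = 0.131). It was called lower without untreated replicate 3 (limma adjusted p = 0.00410), with repeated junctions counted once (0.00664) or by far end (0.0100), with the replicate block (0.0168) and with segments of at least 1 junction (0.0384). Igkv17-134, also near the far end, had 11 junctions in all and was not called.

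In the proximal part most of the leading genes of untreated cells lost use, and Igkv12-44, given further on, did not. Igkv8-24 (70166852 to 70167415, minus strand) led the untreated libraries at 4.20%, 3.56% and 3.37% and was at 1.44% and 1.13% with IAA/Dox, falling from rank 1 to rank 21 (log2 change -1.54, SE 0.18, limma adjusted p = 0.000399). Igkv8-27 was at 1.18% and 1.26% against 2.77%, 3.01% and 3.20% (-1.28, SE 0.14, limma adjusted p = 0.000233). With repeats of the same far end counted once the log2 change of Igkv8-24 was -0.75 (limma adjusted p = 0.00110). The Igkv8 family took 8.63% and 7.58% of Vk junctions against 15.7%, 15.1% and 14.8%, and 7 of its 8 segments fell with none higher. In the Igkv6 family 8 of 9 segments fell, where 30.6% of all segments tested fell. Igkv6-32 fell by less, from 2.82%, 2.79% and 2.73% to 2.10% and 2.13% (-0.39, SE 0.10, limma adjusted p = 0.0126), and this call was lost on scaling to chromosome 6 junctions (limma adjusted p = 0.0658). It was lost too without either treated library or untreated replicate 2 (limma adjusted p between 0.0618 and 0.0954), and its log2 change turned to 0.054 when repeats with the same far end were counted once.

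Igkv3-12 (70468244 to 70468843) had the largest fall among the leading genes. It took 2.83%, 2.68% and 2.70% of untreated junctions and 0.429% and 0.340% of treated ones, a 7.11-fold lower mean (log2 change -2.85, SE 0.17, limma adjusted p = 3.77e-05). Igkv3-7 fell from 2.79%, 2.69% and 2.76% to 1.01% and 0.653% (-1.80, SE 0.17, limma adjusted p = 0.000194). Igkv5-48 fell from 2.91%, 2.88% and 2.85% to 0.858% and 0.986% (-1.63), and Igkv5-39 from 2.49%, 2.52% and 2.43% to 1.49% and 1.47% (-0.74; largest limma adjusted p 0.00118). Counting repeated junctions once gave log2 changes of -1.30 for Igkv3-12, -1.01 for Igkv3-7, -0.98 for Igkv5-48 and -2.53 for Igkv8-18, all called (largest limma adjusted p 6.21e-05). The call of Igkv5-39 was lost (limma adjusted p = 0.0808). Igkv8-18 went from 0.172%, 0.143% and 0.164% to 0.0148% and 0.0101%, a 12.8-fold lower mean (log2 change -3.52, limma adjusted p = 0.00102). An unnamed segment at position 70448357 had 71 untreated and 0 treated junctions, and was at least 2.79-fold lower against a floor of 3 counts over the treated group. Its call was lost without IAA/Dox replicate 2 (limma adjusted p = 0.135).

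The Vk genes nearest to Jk did the opposite of their neighbours. Igkv3-1, Igkv3-2 and Igkv3-3 end 0.0199, 0.0250 and 0.0365 Mb from the bait end, and all 3 rose, while Igkv3-7 at 0.116 Mb and Igkv3-12 at 0.205 Mb fell. Igkv3-2 was at 1.36% and 1.53% with IAA/Dox against 0.433%, 0.381% and 0.337%, a 3.76-fold higher mean (log2 change 1.92, SE 0.16, limma adjusted p = 8.04e-05). Igkv3-1 was at 0.113% and 0.215% against 0.0515%, 0.0456% and 0.0223% (2.10, SE 0.45, limma adjusted p = 0.00732), and Igkv3-3 at 0.0592% and 0.0303% against 0.0165%, 0.0126% and 0.0123% (1.59, SE 0.42, limma adjusted p = 0.0154). Igkv3-3 had 80 junctions in all, and its call was lost without IAA/Dox replicate 1 or untreated replicate 2 (limma adjusted p = 0.149 and 0.0532). Its log2 change was 0.19 with repeated junctions counted once (limma adjusted p = 0.582), and with repeats of the same far end counted once 0.57 (limma adjusted p = 0.291). The call of Igkv3-1 was lost without IAA/Dox replicate 2 (limma adjusted p = 0.0870). The same family therefore held 3 segments that rose and 4 that fell, of 8 (18.5% and 30.6% of all segments tested). Repeats counted once gave smaller log2 changes of 0.56 for Igkv3-2 and 0.59 for Igkv3-1 (limma adjusted p = 0.00188 and 0.0454).

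The largest log2 change over all lines was at an unnamed segment just upstream of Igkv3-1, at position 70653432. It joined by inversion, in the direction opposite to the genes around it. It had 25 and 39 junctions in the treated libraries and 1, 3 and 6 in the far deeper untreated ones, which is 0.123% and 0.131% against 0.000660%, 0.00211% and 0.00462% (log2 change 5.86, SE 0.58, limma adjusted p = 0.000194). The log2 change was 2.72 with repeated junctions counted once and 4.91 with repeats of the same far end counted once. Under the first of these countings it was not the largest in size, as Igkv4-91 was at -2.88. The best signal match of position 70653432 is shown because it lacks the exact heptamer. It has 1 mismatch in the heptamer, 4 in the nonamer and a spacer of 11 bases. A match needed at least 11 of 16 bases, so this signal is a weak one.
Position 70653432 (chr6:70653405-70653446, minus strand): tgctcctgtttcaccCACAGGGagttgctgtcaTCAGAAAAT

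**Figure D3:**
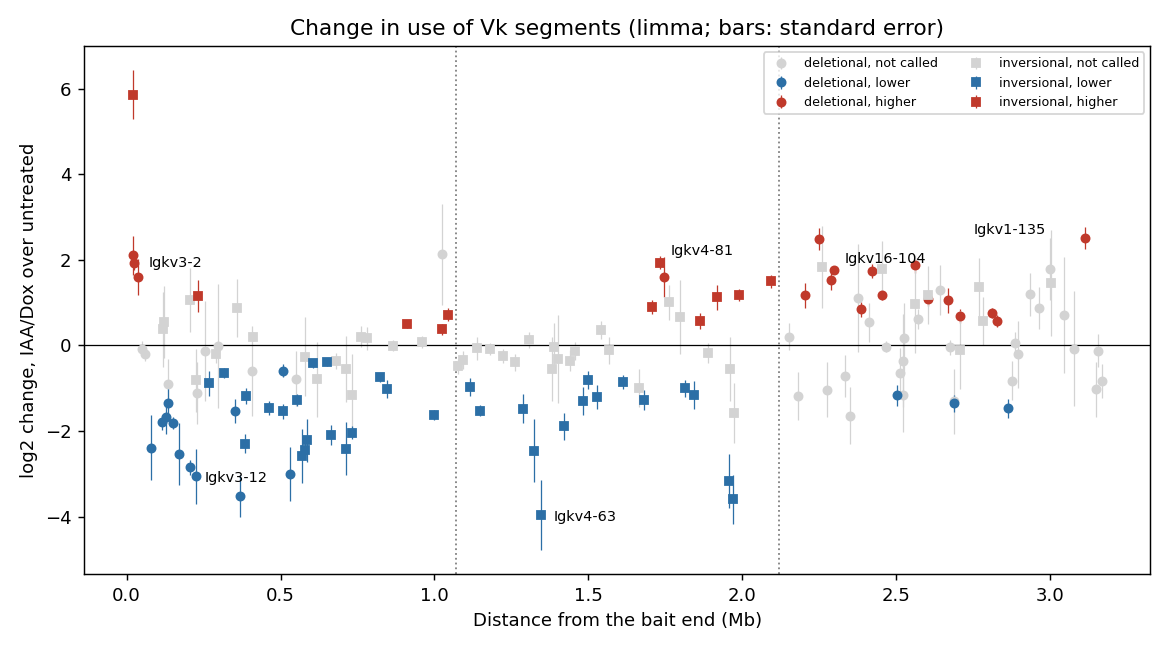
The log2 change in use of the 157 Vk segments with IAA/Dox over untreated, with standard errors from limma, against distance from the bait end in Mb. Colour marks the limma call, circles are deletional and squares inversional segments, and dotted lines mark the parts. In the distal part 14 segments rose and 3 fell, in the proximal part 8 rose and 30 fell, and the nearest segments, at the left edge, rose.

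The middle part, whose summed share overlapped between the groups, held large changes in both directions. Most of its genes are Igkv4 genes that join by inversion, and over all 26 Igkv4 segments 13 fell and 4 rose (30.6% and 18.5% of all segments tested). Igkv4-81 rose from 0.448%, 0.344% and 0.409% to 1.505% and 1.53% (log2 change 1.93, SE 0.15, limma adjusted p = 8.04e-05), a call lost with repeated junctions counted once (log2 change 0.29, limma adjusted p = 0.0523). Igkv4-57 fell from 2.71%, 2.83% and 2.91% to 0.937% and 1.01% (-1.53, SE 0.12, limma adjusted p = 8.04e-05), and by 0.57 on the log2 scale with repeated junctions counted once. Igkv4-63 was nearly lost, at 0.00493% and 0.0303% against 0.2001%, 0.307% and 0.304% (-3.97, SE 0.82, limma adjusted p = 0.00650), a call that did not hold without IAA/Dox replicate 2 (limma adjusted p = 0.0780). Igkv4-92 and Igkv4-91, neighbours at the far end of the Igkv4 group, fell by 3.60 and 3.17 on the log2 scale (limma adjusted p = 0.00181 and 0.00524). Both calls were lost without IAA/Dox replicate 2 (limma adjusted p = 0.0600 and 0.0828). The log2 changes were -2.48 for Igkv4-63, -2.55 for Igkv4-92 and -2.88 for Igkv4-91 with repeated junctions counted once. Igkv19-93 and Gm16637, an annotated gene in the Vk region, lie on the distal side of these and rose, with log2 changes of 1.18 and 1.49 (largest limma adjusted p 0.000488). They are named after their values were seen.

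Around the border of the proximal and middle parts a pair of leading genes gained modestly. Igkv12-44 was at 3.43% and 3.48% with IAA/Dox against 2.35%, 2.45% and 2.59%, and moved from rank 9 to rank 2 (log2 change 0.49, SE 0.09, limma adjusted p = 0.00475). With repeated junctions counted once its log2 change was -0.060 (limma adjusted p = 0.691), and without IAA/Dox replicate 2 the call was lost (limma adjusted p = 0.0546). Igkv4-50 was at 2.43% and 2.84% against 1.91%, 2.02% and 2.23% (0.37, SE 0.13, limma adjusted p = 0.0414). Its call was lost when either treated library, or untreated replicate 1 or 2, was left out (limma adjusted p between 0.0613 and 0.394), and with repeated junctions counted once its log2 change was 0.019 (limma adjusted p = 0.921). The 10 most used segments of each group shared 3 members, and took 36.9% of treated and 31.1% of untreated Vk junctions.

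**Figure D4:**
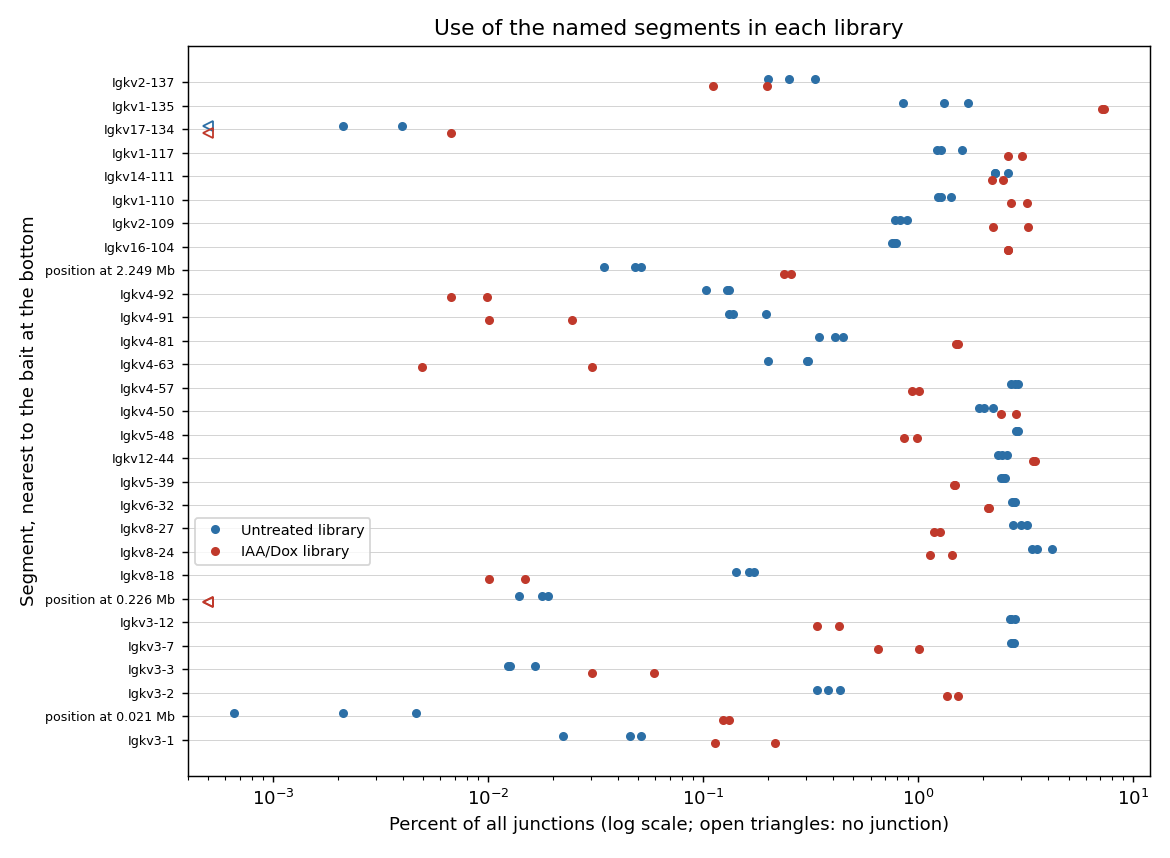
Percent of all junctions, on a log scale, at each named segment in each untreated (blue) and IAA/Dox (red) library, ordered by distance from the bait with the nearest at the bottom. Open triangles mark libraries without a junction. From the bottom, the nearest 4 segments are higher with IAA/Dox, most of the following proximal genes are lower, and most segments from Igkv16-104 upward are higher, with Igkv14-111 and Igkv17-134 overlapping between the groups and Igkv2-137 lower.

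Exact signals were found both among segments that rose and among those that fell. Of the 109 segments with an exact heptamer at the junction edge, which took 88.6% of Vk junctions, 22 rose and 38 fell, against 29 and 48 of all 157. Of the 39 segments with an exact nonamer, whatever their heptamer, 9 rose and 17 fell. The heptamer counts lie near the shares over all segments tested (18.5% and 30.6%), and nothing particular to exact signals is read from either count.

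Junctions on the far side of Igkj5 differed between the groups by more than their spread. A downstream site beyond Igkc, at position 70701774, took 0.548% and 0.569% of treated junctions and 5.45%, 6.39% and 5.38% of untreated ones, a 10.3-fold lower mean (0.558% ± 0.0150, SD, n = 2, against 5.74% ± 0.566, n = 3). Igk is known to carry a recombining sequence with a 23-base signal downstream of Igkc, whose use deletes or inactivates the constant gene; the annotation used here names nothing at the site. The groups did not overlap, and they did not overlap when repeated junctions were counted once either, where the mean was 5.05-fold lower. This site was singled out after its values were seen and has no test of its own. At least 98.2% of its junctions in each library read on the minus strand, and between 19.5% and 27.0% of them had their junction at or past the outer base of the heptamer, so that a prey alignment on the minus strand takes in the heptamer. The most frequent joint there is shown with the bait alignment in lower case.
Downstream site joint: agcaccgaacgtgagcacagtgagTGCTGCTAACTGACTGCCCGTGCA
This joint was 11.4% of the 280 treated and 10.2% of the 24342 untreated junctions at the site. The bait and prey alignments of this read overlap by 9 bases, which include a heptamer that both Igkj5 and the downstream site carry. Igkj5 has cc where the joint has a lone c at the start of that heptamer. From the heptamer on, the joint has the letters of the downstream site without a break. Read without a gap, the joint thus holds the heptamer of the downstream site.

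The best signal match of the intron site between Igkj5 and Igkc had a 12-base spacer, an exact heptamer and 4 mismatches in the nonamer. The intron site was higher with IAA/Dox. It took 1.98% and 1.33% of treated junctions against 0.944%, 1.02% and 0.925% of untreated ones. With repeated junctions counted once the groups overlapped. With repeats of the same far end counted once they narrowly did not, at 1.98% and 1.356% against 1.22%, 1.354% and 1.26%. The interval of the Jk cluster, 70672456 to 70674121 and so with Igkj5 itself, took 2.14% and 1.94% against 1.21%, 1.10% and 1.08%. With repeated junctions counted once the treated libraries were the lower group (2.55% ± 0.0351, SD, n = 2, against 2.80% ± 0.216, n = 3). With repeats of the same far end counted once they were the higher group (2.46% ± 0.00707 against 2.13% ± 0.131). All junctions on the Jk side together took 4.72% and 3.90% against 7.68%, 8.62% and 7.45% (exact permutation p = 0.2, the floor of this design, adjusted p = 0.32). The interval between the Vk region and Jk held few junctions in either group, 0.0345% and 0.0404% against 0.0139%, 0.0140% and 0.0169%, and with repeated junctions counted once the difference turned to -0.0684 points.

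The share of all junctions that fell in the Vk region depended on what it was divided by. Over all junctions it was 81.9% and 86.0% with IAA/Dox against 90.4%, 89.2% and 90.4% (exact permutation p = 0.2, the floor of this design, adjusted p = 0.32). Over chromosome 6 junctions it was higher with IAA/Dox, with means of 94.0% ± 0.933 (SD, n = 2) against 91.8% ± 0.630 (n = 3). Over Vk and Jk-side junctions it was also higher, 95.1% ± 0.783 against 91.9% ± 0.638. Over junctions outside the Jk side it was lower, 87.7% ± 2.45 against 97.7% ± 0.167. The difference over all junctions was -6.03 points, and was -16.5 with repeated junctions counted once. It was -28.7 when libraries were thinned to equal size and repeated junctions were then counted once. The denominators of all junctions and of junctions outside the Jk side hold the junctions off chromosome 6 given above, and the treated share was lower over both.

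Most measures of the structure of Vk joints overlapped between the groups. The distance from the V coding end to the edge of the prey alignment had a mean of 1.78 and 1.81 bases in the treated libraries. In the untreated ones it was 1.76, 1.77 and 1.80 bases (exact permutation p = 0.4, adjusted p = 0.457). Alignments past the coding end counted as negative, and bases shared by bait and prey counted in both alignments. This distance is therefore not the number of bases lost. Bases inserted between bait and prey were present in 19.6% and 15.4% of Vk junctions against 16.6%, 14.6% and 14.6% (exact permutation p = 0.4, adjusted p = 0.457). Bait and prey overlapped, as they do where a few bases are shared, in 47.4% and 51.3% against 49.5%, 50.7% and 51.0% (exact permutation p = 0.8, adjusted p = 0.8). Each of these 3 differences turned in sign when repeated junctions were counted once, to -1.18 bases for the V end, -5.01 points for inserted bases and 3.18 points for overlap (exact permutation p = 0.2 each). In 2 further measures, not tested, the groups did not overlap. Direct joints, with neither insertion nor overlap, were 33.0% and 33.3% of Vk junctions against 33.9%, 34.7% and 34.4%. The distance from the Igkj5 end to the edge of the bait alignment, measured in the same way, had a mean of 1.30 and 1.26 bases against 1.45, 1.41 and 1.46.

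The same genotype was also profiled from Jh baits in Igh, the heavy chain locus, with 3 treated and 3 untreated libraries, so the treatment effect can be set side by side in both loci. The V share of all junctions had a log2 effect of -0.10 at Igk (83.9% ± 2.85, SD, n = 2, against 90.0% ± 0.697, n = 3) and of 1.89 at Igh (4.70% ± 0.204 against 1.27% ± 0.226, n = 3 each). As 90.0% of untreated Igk junctions were already Vk junctions, a ratio like that at Igh could not be reached at Igk, and the difference on this scale is bounded by the starting levels. That difference, -1.99, had an exact permutation p of 0.005 over the treatment labels, the smallest possible (adjusted p = 0.08), and of 0.46 over the locus labels (adjusted p = 0.491). With Vk and Jk-side junctions, or V, D and Jh junctions, as denominator the log2 effects were 0.049 at Igk and 1.93 at Igh. The exact permutation p over the treatment labels was then 0.1. Shuffling treatment labels takes both loci as without effect, and shuffling locus labels takes their libraries as alike. Neither p therefore tests the difference of effects alone. The distal share differed by 22.2 points at Igk and by 51.4 points at Igh, where it was 55.4% ± 2.13 against 3.99% ± 0.387 (n = 3 each). That difference of -29.2 points had an exact permutation p of 0.28 over the treatment labels (adjusted p = 0.407) and of 0.01 over the locus labels (adjusted p = 0.08). With treatment the distal shares of both loci were close, and the untreated ones were far apart: 29.6% at Igk and 3.99% at Igh. The Igh libraries came from other sequencing runs, so locus and run cannot be told apart.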

How the data were processed

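LAM-HTGTS sequences the DNA that a bait end was joined to. Per the labels and the submitters' processing notes, the authors aligned reads to mm9 with Bowtie2; the deposited lists give 1 junction per line, with positions and strands (unit: other), and the file headers name the pipeline's filters. No repeated line was removed here in the main counts. Distance was taken from the bait end (B_Rend). Segments were clusters over gaps of up to 20 bp, and an annotated gene (GENCODE vM1) within 20 bp named its largest cluster. Shares were compared with two-sided exact permutation tests over libraries. Segment counts with at least 10 junctions were fitted with limma 3.58.1 in R 4.3.3 (voom, total junctions as library size, Benjamini-Hochberg). The fit was tried on simulated counts with large changes and independent noise, which does not test calls of small changes or the effect of repeated lines. Signals were the best match within 15 bp of the most frequent position. Named segments were the 8 most used in each group, the 5 largest changes each way among called segments whose groups do not overlap, and the 3 nearest and 3 farthest genes. Other named segments are marked in the text. The members and lists were chosen with earlier results of these data known. Alternatives were repeats counted once, other denominators and filters, a quasi-binomial model, the replicate block and leaving out each library. Repeats with the same far end were added after seeing the data. No interval is given for counting error, since repeated lines may not be independent molecules.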

Additional observations from a re-analysis of the deposited data

Results flagged for a closer look

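A pair of results was flagged because the difference in treatment effect between Igk and Igh had a permutation p under 0.05, before adjustment for the 16 tests. Shuffling treatment labels takes both loci as without effect, and shuffling locus labels takes the libraries of both loci as alike. Neither p therefore tests the difference of effects alone. The effect on the V share of all junctions was lower at Igk by 1.99 on the log2 scale (-1.99). The Igk share was already 90.0% in untreated cells, so a ratio like that at Igh was out of reach and the difference is bounded by the starting levels. The effect on the distal share of V junctions was smaller at Igk, with a difference of -29.2 percentage points. In each case only one of the ways of permuting the labels gave a p under the threshold, and neither adjusted p did (0.08 for both).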

How the results depend on the processing

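The Vk share of all junctions changed sign with the denominator: the difference was 2.26 points over chromosome 6 junctions and 3.19 over Vk and Jk-side junctions. With repeats counted once, the sign also turned for the Vk-Jk interval (-0.0684 points), the V end distance (-1.18 bases), inserted bases (-5.01 points) and overlap (3.18 points). With repeats of the same far end counted once, the last 3 were -0.330, -1.47 and 2.54. Igkv12-44 turned to -0.060 with repeats counted once and Igkv6-32 to 0.054 with far ends. Igkv14-111, which was not called, turned to 0.064 with Vk and 0.10 with chromosome 6 library sizes, 0.078 with far ends and 0.039 with the replicate block, and ran from -0.0997 to 0.056 with each library left out. The V share effect of Igk against Igh was -1.88 over V and J or D junctions, with a permutation p of 0.1. limma called 343 of 569 segments (291 higher) with at least 1 junction, where the median log2 change was 1.78, against -0.25 in the main fit. voom adds 0.5 counts to each library, which lifts nearly empty segments in the smaller treated libraries. These 291 are therefore not read as segments that rose. limma called 82 of 139 segments with repeats counted once (12 higher, 70 lower), and the quasi-binomial model called 37 of 157 (14 higher, 23 lower). That model lost Igkv12-44, Igkv1-117, Igkv4-50, Igkv8-24, Igkv3-1, Igkv3-3, Igkv4-63 and Igkv4-91.

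Leaving out each library in turn gave between 48 and 85 calls, 21 to 35 higher and 27 to 50 lower. The lowest counts came without IAA/Dox replicate 2. The middle part of the region moved between -2.87 and 0.0143 points and overlap between -2.99 and 0.886. The difference in the Vk share of all junctions lay between -8.05 and -4.02 points. Inserted bases differed by 0.171 to 4.33 points, and the V end distance by 0.0021 to 0.0313 bases. The distal difference stayed between 21.9 and 22.6 points.

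Replicate numbers do not establish a pairing: the correlation of deviations was 0.341 for number 1 and 0.0335 for number 2. The replicate block gave 84 calls, 33 higher and 51 lower, and a distal difference of 22.3 points. As all 5 libraries share a sequencing run, the fit within the run is the fit reported.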
